A study of Mus musculus with 32 samples.

Results

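The 32 genes examined belong to the unfolded protein response (UPR) and the integrated stress response, and were followed in the epidermis of mice exposed to a single dose of UV radiation. They were chosen by symbol as the endoplasmic reticulum (ER) chaperones, the genes of ER-associated degradation (ERAD), the UPR sensors and the targets of the transcription factor ATF4, and all 32 were found among the 55401 identifiers of the count files. RNA-seq was performed on dorsal epidermis of 32 hairless mice on the mixed background SKH-1/SV129/BL6/J, aged 10 to 14 weeks. Wild type (WT) mice were compared with their littermates deficient for PPARbeta, labelled KO or PPARD-/-. Each genotype, sex and treatment was represented by 4 mice, so that the 16 WT and 16 KO mice fell into 8 groups. UV mice received 120 mJ/cm2 on the back, a dose below that causing erythema, and were killed 24 h later. Control mice were sham manipulated and received no UV. No promoter, Cre or tissue restriction of the deletion is given in the sources used here.

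Reads on genes, in units of 1e6, ranged from 22.9 to 40.7 per mouse (median 27.6), with medians of 27.2 in the controls and 28 after UV. The Ppard gene itself ranged from 87.0 to 106.8 counts per 1e6 reads (cpm) in WT controls and from 73.5 to 88.2 cpm in KO controls, and after UV from 252.8 to 333.5 and from 162.4 to 236.1 cpm. Reads were counted over the whole gene, so that these values do not show which exons were transcribed and do not check the genotype. Muscle RNA was uneven: the summed level of 6 skeletal muscle genes exceeded 1000 cpm in 9 mice, 4 of them controls. One KO female after UV, mouse 54F, carried 1843.7 cpm of 6 dermal fibroblast genes, against at most 94.9 cpm in any other mouse.

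The ER folds secreted and membrane proteins, and an excess of unfolded clients activates 3 sensors in its membrane. IRE1 (Ern1) splices Xbp1 mRNA, ATF6 is cut in the Golgi to release a transcription factor, and PERK (Eif2ak3) phosphorylates the translation factor eIF2. XBP1 and ATF6 raise ER chaperones and ERAD genes, whereas phosphorylated eIF2 slows translation in general and favours translation of ATF4, which raises amino acid synthesis genes and, with CHOP (Ddit3), the phosphatase subunit GADD34 (Ppp1r15a). Other kinases, among them GCN2 (Eif2ak4), phosphorylate the same factor without ER stress, so that the ATF4 arm can move apart from the chaperones. The UPR has also been linked to keratinocyte differentiation.

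After UV exposure most ER folding genes rose, whereas ATF4 arm genes changed in both directions, as did genes in general. In WT mice, 19 of 32 genes rose and 6 fell at an adjusted P value below 0.05, and in KO mice 20 rose and 5 fell (edgeR quasi-likelihood test, Benjamini-Hochberg over 15546 genes). The UV response was broad: 34.5% of all genes tested were called higher and 36.5% lower in WT mice, and 37.3% and 33.5% in KO mice. The median log2 fold change of the 32 genes was 0.37 in WT and 0.33 in KO mice, beside -0.01 and 0.09 over all genes. With a fold change above 1.5 required as well, 10 genes rose and 2 fell in WT mice, and 13 rose and 2 fell in KO mice. By that criterion 21.8% of all genes tested were higher and 26.1% lower in WT mice, and 24.8% and 22.8% in KO mice. Without the 9 mice rich in muscle RNA, 20 rose and 4 fell in each genotype.

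**Figure D1:**
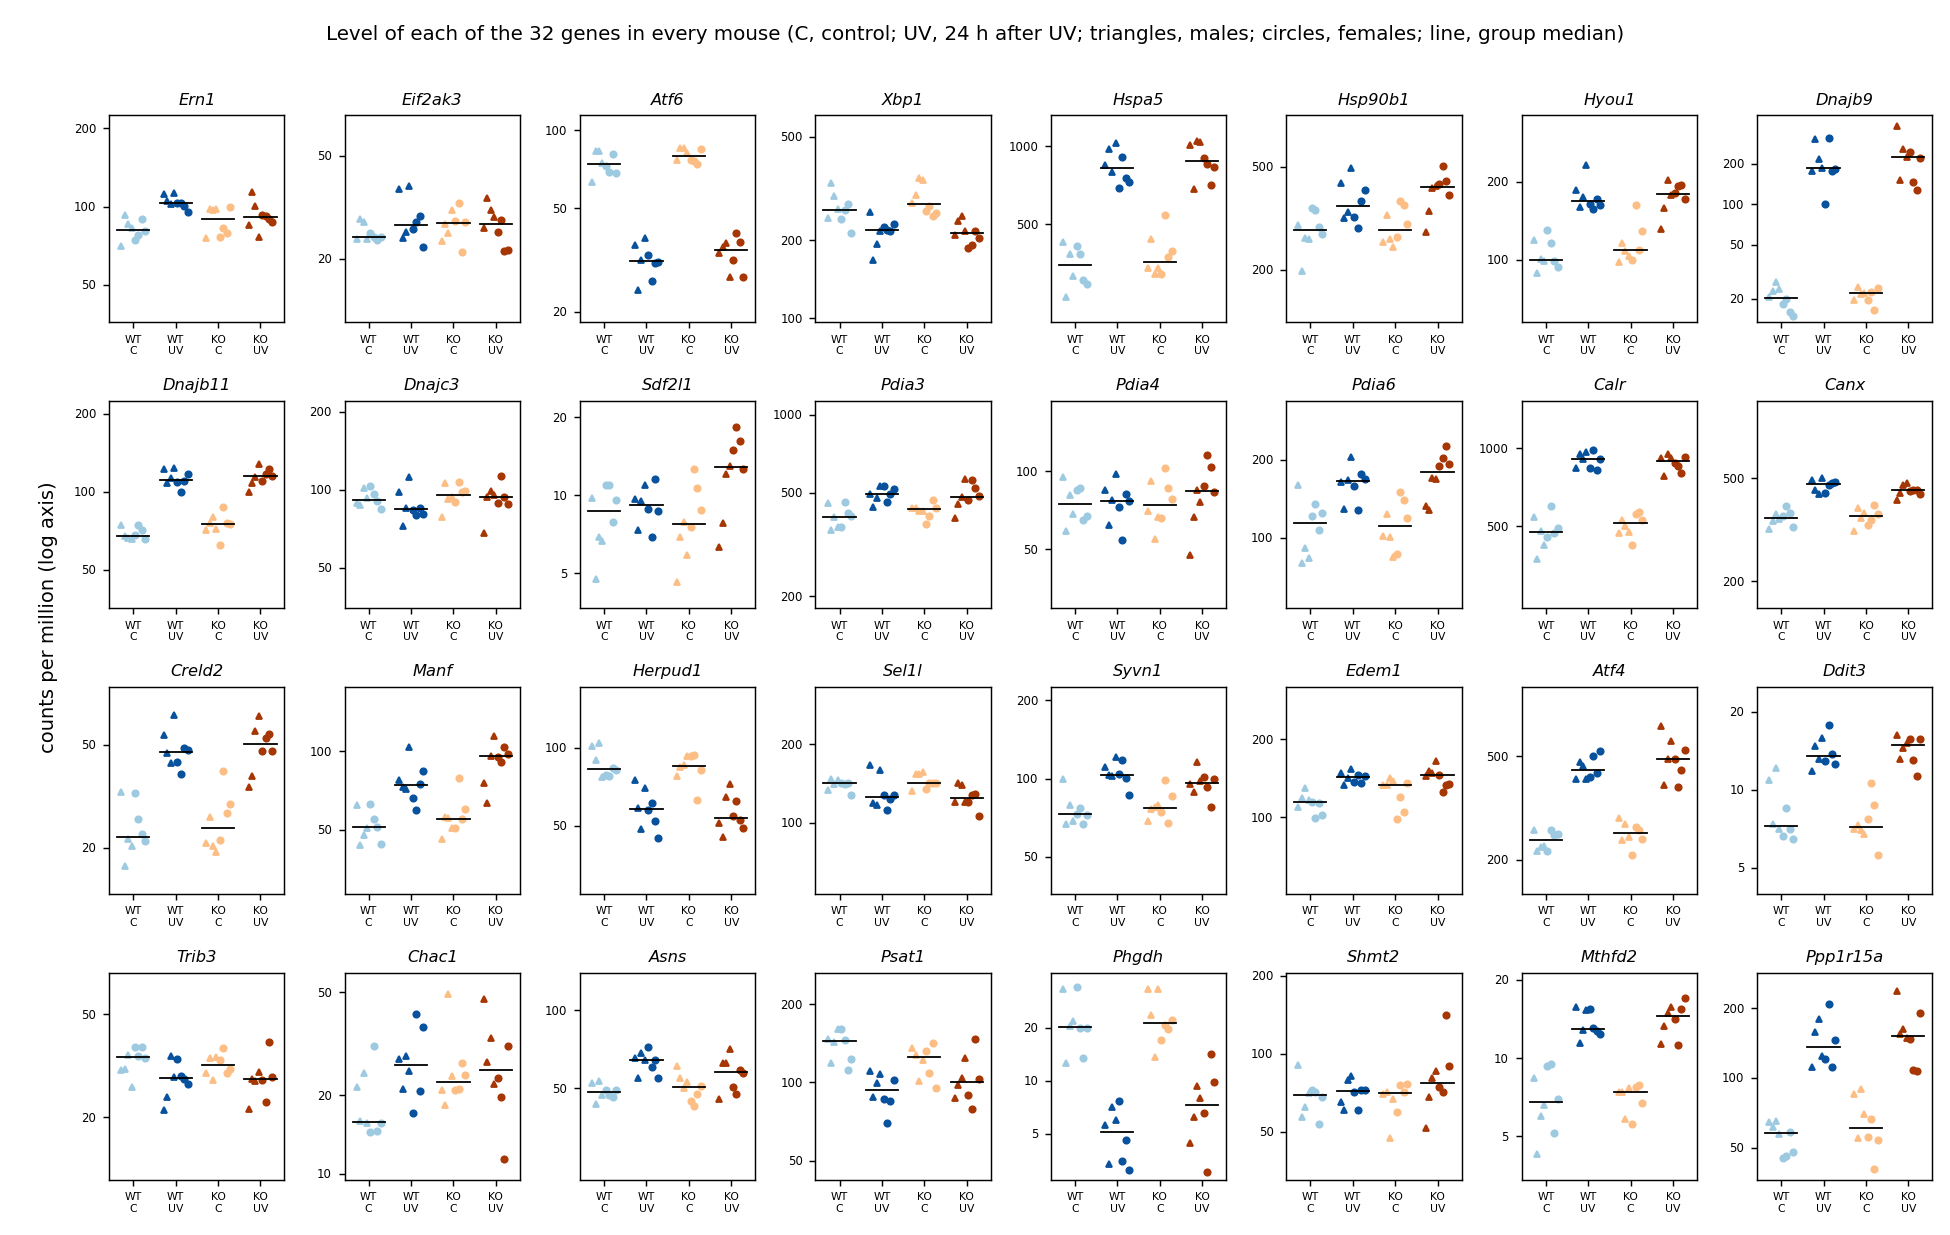
Level of each of the 32 genes in every mouse, in cpm on a log axis; columns are control (C) and UV-exposed WT and KO mice, triangles are males, circles females and lines group medians. Dnajb9, Hspa5, Calr, Canx, Dnajb11, Atf4, Mthfd2 and Ppp1r15a were higher in all 16 UV mice than in any of the 16 controls, and Atf6 was lower in all 16. The share of all genes tested that separate in this way was not computed. That share can be no larger than the 17.6% (higher) and 17.3% (lower) that did not overlap within each sex and genotype.

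The mRNAs of the UPR sensors did not rise together. Atf6 ranged from 63 to 83.5 cpm in WT controls (median 73.8) and from 24.3 to 38.6 cpm after UV (median 31.5), and in KO mice from 74 to 85.5 (median 79.4) and from 27.1 to 40.3 cpm (median 34.6). Every UV mouse lay below every control. Its log2 fold change was -1.25 ± 0.09 (SE) in WT mice (adjusted P value 1.39e-12) and -1.21 ± 0.09 in KO mice (adjusted P value 3.24e-12). Xbp1, which encodes the transcription factor produced by IRE1 splicing, fell by 0.31 ± 0.07 on the log2 scale in WT mice (medians 262.1 and 218.4 cpm, adjusted P value 0.000501) and by 0.38 ± 0.07 in KO mice (medians 274.7 and 212.9 cpm, adjusted P value 3.68e-05). UV mice and controls overlapped, with 6 of 16 UV mice below all controls. In WT mice the Xbp1 call was lost without the 9 mice rich in muscle RNA (log2 fold change -0.18, adjusted P value 0.0743). Counts per gene do not separate spliced from unspliced Xbp1 mRNA, cleaved from intact ATF6, or active from inactive kinases.

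Ern1 ranged from 70.5 to 92.9 cpm in WT controls (median 81.4) and from 95.2 to 112.8 cpm after UV (median 103.2), without overlap, a log2 fold change of 0.34 ± 0.08 (adjusted P value 0.000225). In KO mice its medians were 89.5 and 90.9 cpm and the log2 fold change was 0.10 ± 0.08 (adjusted P value 0.234). The difference between the genotypes, -0.24 ± 0.11, did not pass the test (adjusted P value 0.213). Eif2ak3 had medians of 24.2 and 26.9 cpm in WT and 27.5 and 27.2 cpm in KO mice, and neither change passed the test (adjusted P values 0.1 and 0.739). Without any one of mice 38M, 54F, 57M or 62F the rise of Eif2ak3 in WT mice passed, with log2 fold changes of 0.22 to 0.25.

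Of the 14 ER folding genes, 11 rose in WT mice (78.6%) and 12 in KO mice (85.7%), and none fell. Their median log2 fold change was 0.53 in WT and 0.66 in KO mice. The largest change of all 32 genes was that of Dnajb9, which encodes the soluble ER co-chaperone ERdj4. It ranged from 14.9 to 26.4 cpm in WT controls (median 20.2) and from 99.8 to 311.8 cpm after UV (median 185.3), and in KO mice from 16.4 to 24.2 (median 21.9) and from 126.7 to 379.7 cpm (median 223.4). The lowest UV mouse thus stood above the highest control by a wide margin. The log2 fold change was 3.37 ± 0.21 in WT mice (adjusted P value 5.74e-14) and 3.40 ± 0.21 in KO mice (adjusted P value 5.55e-14), or 10.3-fold and 10.5-fold.

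Hspa5 encodes BiP, the main HSP70 chaperone of the ER, which also holds the sensors inactive. It ranged from 263.3 to 428.7 cpm in WT controls (median 349.8) and from 690.2 to 1030.5 cpm after UV (median 820.7), a log2 fold change of 1.26 ± 0.12 (adjusted P value 3.07e-10). In KO mice the values were 321.5 to 543.3 (median 357.1) and 680.9 to 1045.5 cpm (median 876.5), a log2 fold change of 1.25 ± 0.12 (adjusted P value 4.04e-10). All 16 UV mice were above all 16 controls. Calr, the lectin chaperone calreticulin, had medians of 475.4 and 906.8 cpm in WT mice and 514.0 and 892.7 cpm in KO mice, with log2 fold changes of 0.90 ± 0.08 and 0.83 ± 0.08 (adjusted P values 2.77e-11 and 1.6e-10). Its membrane-bound relative Canx, calnexin, changed less, by 0.41 ± 0.05 and 0.37 ± 0.05 (medians 351.4 and 474.7 cpm in WT mice), but also without overlap between UV mice and controls. Creld2, a secreted ER stress protein, had medians of 22.1 and 46.9 cpm in WT mice and 23.9 and 50.1 cpm in KO mice, and log2 fold changes of 0.98 ± 0.14 and 1.01 ± 0.14 (adjusted P values 7.66e-07 and 4.85e-07). In all, 13 of 16 UV mice exceeded every control for Creld2.

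Further partners of BiP rose more modestly. Hyou1, a nucleotide exchange factor for BiP, had medians of 99.9 and 167.7 cpm in WT mice and a log2 fold change of 0.72 ± 0.09 (adjusted P value 1.1e-07), against 0.65 ± 0.09 in KO mice. Dnajb11, the co-chaperone ERdj3, had medians of 67.6 and 111.3 cpm in WT mice and changed by 0.70 ± 0.06 (adjusted P value 1.3e-11) and by 0.65 ± 0.06 in KO mice. Every UV mouse exceeded every control for Dnajb11. Manf, a secreted factor retained in the ER by BiP, rose by 0.54 ± 0.11 in WT mice (medians 51 and 74.2 cpm, adjusted P value 0.000113) and by 0.75 ± 0.11 in KO mice (medians 55.2 and 95.8 cpm, adjusted P value 1.28e-06). Hsp90b1, the ER HSP90 known as GRP94, rose by 0.37 ± 0.11 and 0.47 ± 0.11 (adjusted P values 0.0032 and 0.000352). Its range after UV overlapped that of the controls, and 217 of its 4032 exonic bases (5.38%) are shared with small genes on the same strand.

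The protein disulfide isomerases, which form and reshuffle disulfide bonds in the ER, did not respond alike. Pdia6 rose by 0.51 ± 0.13 in WT mice (medians 114.3 and 165.4 cpm, adjusted P value 0.000796) and by 0.67 ± 0.13 in KO mice (adjusted P value 4.18e-05). Pdia3 rose by 0.27 ± 0.07 and 0.24 ± 0.07 (adjusted P values 0.000691 and 0.00203). Pdia4 had medians of 74.6 and 76.8 cpm in WT mice, and its log2 fold changes of -0.01 and 0.14 did not pass the test, with 95% intervals of -0.26 to 0.24 and -0.12 to 0.39. Dnajc3, known as p58IPK, an inhibitor of PERK and a co-chaperone of BiP, did not pass either, with log2 fold changes of -0.11 (95% interval -0.27 to 0.05) and -0.00 (-0.16 to 0.16). Sdf2l1, part of a BiP complex that handles misfolded proteins, had medians of 8.71 and 9.14 cpm in WT mice (adjusted P value 0.473) and 7.72 and 12.8 cpm in KO mice, where it rose by 0.68 ± 0.16 (adjusted P value 0.000456). The difference between the genotypes for Sdf2l1 was 0.55 ± 0.23 and did not pass the test (adjusted P value 0.183).

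**Figure D2:**
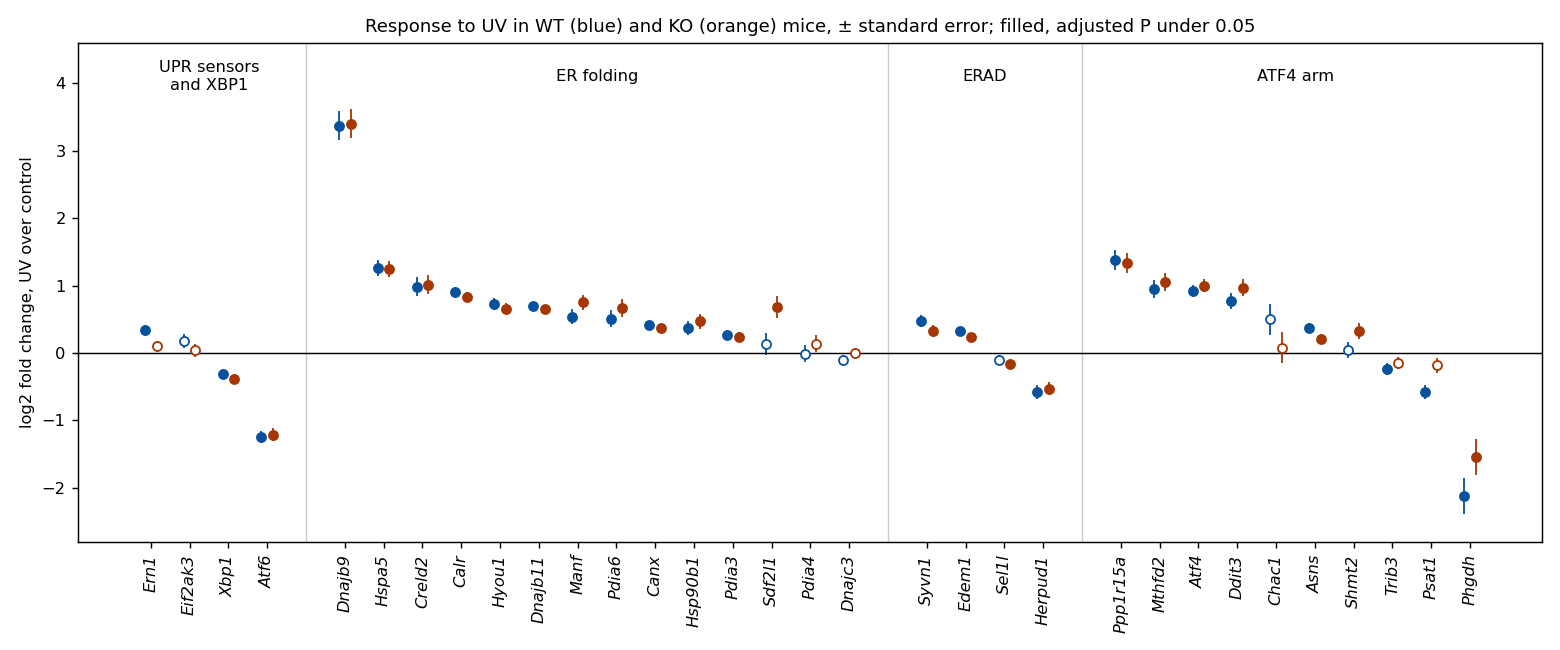
Log2 fold change (UV over control) of the 32 genes in WT (blue) and KO (orange) mice, 16 mice per genotype; bars are standard errors and filled symbols have an adjusted P value below 0.05. Dnajb9 at 3.37 and 3.40 stands apart at the top, and Phgdh at -2.12 and -1.54 at the bottom.

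The promoter windows of these genes, 250 bases before to 50 bases after the gene start, were searched on both strands for the ER stress response element (ERSE), which ATF6 and XBP1 are known to use together with the factor NF-Y. The letters were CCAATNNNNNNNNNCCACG. They occurred in 39 of the 32851 windows of the mouse RefSeq table (0.119%, assembly GRCm38.p6) and in 8 of the 29 members with a window. Atf6, Hyou1 and Manf had no entry. The matches are printed because they show what the 8 genes share, each in the direction of the motif, with the motif, any bases between its ends included, in capitals and 10 flanking bases on either side.
Hspa5, chr2:34772015-34772053: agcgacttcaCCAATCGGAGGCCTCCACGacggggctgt
Hsp90b1, chr10:86705628-86705666: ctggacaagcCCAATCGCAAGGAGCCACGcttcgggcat
Hsp90b1, chr10:86705523-86705561: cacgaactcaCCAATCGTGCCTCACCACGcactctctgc
Dnajc3, chr14:118937817-118937855: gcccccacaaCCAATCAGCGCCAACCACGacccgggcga
Pdia6, chr12:17266481-17266519: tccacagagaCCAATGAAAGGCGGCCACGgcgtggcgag
Calr, chr8:84847065-84847103: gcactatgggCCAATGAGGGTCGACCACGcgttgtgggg
Canx, chr11:50325790-50325828: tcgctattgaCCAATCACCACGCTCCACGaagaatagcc
Creld2, chr15:88819510-88819548: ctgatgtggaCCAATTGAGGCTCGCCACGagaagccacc
Syvn1, chr19:6046522-6046560: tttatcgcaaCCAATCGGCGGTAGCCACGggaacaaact

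All 9 matches lay upstream of the gene start, from -212 in Hsp90b1 to -26 in Syvn1, counted from -1 at the last base before the start. The matches of Calr and Creld2 and the nearer one of Hsp90b1 were on the strand opposite to the gene. Of the 8 genes, 7 rose in each genotype and Dnajc3 did not pass the test. Their median log2 fold change was 0.50 in WT and 0.57 in KO mice. Among the 29 other genes with a match only 10 were expressed enough to be tested, of which 1 rose and 5 fell in WT mice (median -0.27) and 1 rose and 4 fell in KO mice (median -0.32). Among those 10, the ERAD gene Derl3 had log2 fold changes of 1.25 and 1.15 and was not called. Its level was 0 to 0.363 cpm in WT controls. Of the ER folding genes with a window but no match, Dnajb9, Dnajb11 and Pdia3 rose in both genotypes. Sdf2l1 rose only in KO mice, and Pdia4 did not pass in either genotype. The members were chosen as ER stress genes, with earlier results of these data known. Their number of matches and their direction are therefore descriptions, and no difference from the other genes was tested.

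Dnajb9, with the largest rise, held none of the letters searched in its window. The 150 bases before its start are printed for that reason, beside those of Hspa5, where capitals mark the ERSE match.
Dnajb9, chr12:44210069-44210218, minus strand: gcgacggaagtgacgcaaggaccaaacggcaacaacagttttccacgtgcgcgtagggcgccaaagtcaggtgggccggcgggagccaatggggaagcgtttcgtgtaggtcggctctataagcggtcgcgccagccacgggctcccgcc
Hspa5, chr2:34771940-34772089, plus strand: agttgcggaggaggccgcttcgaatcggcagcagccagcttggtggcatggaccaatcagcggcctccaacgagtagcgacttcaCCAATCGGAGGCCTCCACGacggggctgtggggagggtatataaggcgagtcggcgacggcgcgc

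The 4 ERAD genes divided. Syvn1, the ubiquitin ligase HRD1, rose by 0.48 ± 0.09 in WT mice (medians 72.9 and 103.6 cpm, adjusted P value 1.47e-05) and by 0.33 ± 0.09 in KO mice (adjusted P value 0.00104). Edem1, which directs misfolded glycoproteins to degradation, rose by 0.33 ± 0.06 and 0.23 ± 0.06 (adjusted P values 1.36e-05 and 0.000815). Sel1l, the partner of HRD1, did not pass in WT mice (-0.10 ± 0.07, adjusted P value 0.161) and fell by 0.16 ± 0.07 in KO mice (adjusted P value 0.0278). The KO call of Sel1l was lost without any one of mice 59F, 61F, 62F or 72M, with adjusted P values of 0.053 to 0.0729.

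Herpud1, an ER membrane protein that organises the HRD1 complex and is usually counted among the most responsive UPR genes, went the other way. It ranged from 77.1 to 103.8 cpm in WT controls (median 82.8) and from 45.0 to 75.3 cpm after UV (median 58.1), and in KO mice from 62.8 to 93.2 (median 84.7) and from 45.2 to 72.3 cpm (median 53.4). WT ranges did not overlap, and 12 of 16 UV mice lay below every control. The log2 fold change was -0.58 ± 0.10 in WT (adjusted P value 1.13e-05) and -0.53 ± 0.10 in KO mice (adjusted P value 3.67e-05). Its window held the compact form of the element, ERSE-II (ATTGGNCCACG, in 12 of the 32851 windows, 0.0365%), at -52 to -42, and on the opposite strand the letters TGATGNAA at -112 to -105, which are contained in sites bound by ATF4 with C/EBP factors (CARE, in 3.97% of windows). Both are in capitals in the 150 bases before its start, printed because the gene fell although its window carries letters of both kinds.
Herpud1, chr8:94386279-94386428, plus strand: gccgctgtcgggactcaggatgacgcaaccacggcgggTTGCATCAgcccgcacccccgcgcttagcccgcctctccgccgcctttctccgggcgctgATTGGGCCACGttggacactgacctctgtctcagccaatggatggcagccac

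The other ERSE-II match among the members was in Dnajb11, 8 to 18 bases after its start, and Dnajb11 rose. No member held the XBP1 element TGACGTGG, found in 0.676% of windows. The CARE letters were also found in Trib3, Chac1 and Asns, as shown for the last 2 with 8 flanking bases in the direction of the motif.
Chac1, chr2:119351041-119351064: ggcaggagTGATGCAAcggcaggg
Asns, chr6:7693217-7693240: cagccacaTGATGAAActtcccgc

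Asns rose, Trib3 fell in WT mice and Chac1 did not pass the test, so that these 3 genes had no common direction.

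**Figure D3:**
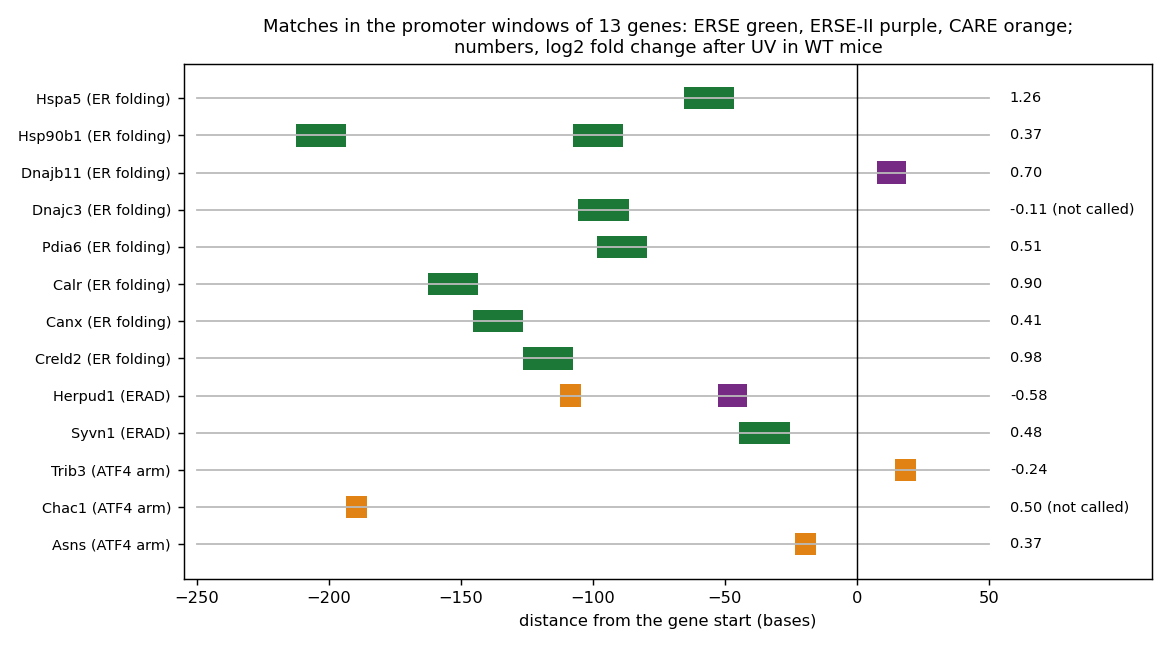
Position of the matches in the promoter windows of 13 genes, as distance from the gene start in bases (ERSE green, ERSE-II purple, CARE orange), with the log2 fold change after UV in WT mice at the right. The ERSE matches lie between -212 and -26, and Herpud1, with 2 kinds of match, has a value of -0.58.

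In the ATF4 arm, 5 of 10 genes rose and 3 fell in WT mice, and 6 rose and 1 fell in KO mice. Atf4, Ddit3, Ppp1r15a, Mthfd2 and Asns rose in both genotypes, and Phgdh fell in both. Atf4 itself ranged from 215.8 to 260.3 cpm in WT controls (median 237.4) and from 409.9 to 525.2 cpm after UV (median 444.0), and in KO mice from 208.5 to 288.3 (median 252.5) and from 379.4 to 655.1 cpm (median 488.9). No UV mouse overlapped with a control. The log2 fold change was 0.92 ± 0.09 in WT mice (adjusted P value 6.95e-10) and 1.00 ± 0.09 in KO mice (adjusted P value 1.52e-10). ATF4 is regulated mainly by translation, which mRNA counts do not measure.

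Ppp1r15a, the GADD34 subunit that directs a phosphatase to eIF2 and so restores translation, ranged from 45.0 to 65.3 cpm in WT controls (median 57.9) and from 111.1 to 207.9 cpm after UV (median 135.3). In KO mice it ranged from 40.5 to 89.6 (median 60.8) and from 106.7 to 236.1 cpm (median 152.1). All UV mice were above all controls, with log2 fold changes of 1.38 ± 0.15 and 1.33 ± 0.15 (adjusted P values 4.78e-09 and 8.82e-09). Ddit3, the transcription factor CHOP, was low: medians were 7.25 and 13.5 cpm in WT mice and 7.19 and 14.8 cpm in KO mice. It rose by 0.77 ± 0.12 (adjusted P value 2.85e-06) and by 0.97 ± 0.12 (adjusted P value 7.94e-08), and 14 of 16 UV mice exceeded every control. Of its 1713 exonic bases, 105 are shared with another identifier of the same symbol that had no reads.

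Trib3 and Chac1 changed less. Trib3, a pseudokinase that restrains the response, had medians of 34.3 and 28.3 cpm in WT mice and fell by 0.24 ± 0.09 (adjusted P value 0.0229). That call was lost without any one of mice 32M, 38M, 56M, 57F, 59F, 61F, 62F or 73F (adjusted P values 0.0533 to 0.0905) and without the mice rich in muscle RNA (0.14). In KO mice Trib3 did not pass (log2 fold change -0.15, adjusted P value 0.162), except without mouse 66F (-0.22, adjusted P value 0.0252). Chac1, which degrades glutathione, ranged from 14.5 to 31.1 cpm in WT controls (median 15.9) and from 17.1 to 41.3 cpm after UV (median 26.3), and its log2 fold change of 0.50 ± 0.23 did not pass (adjusted P value 0.0586). Chac1 passed in WT mice without any one of 10 mice, namely 38M, 51F, 52M, 54F, 56M, 58M, 59F, 62F, 63F and 66F (log2 fold changes 0.50 to 0.67), and without the mice rich in muscle RNA (0.78, adjusted P value 0.0172). In KO mice it ranged from 18.3 to 49.3 and from 11.4 to 46.9 cpm, with a log2 fold change of 0.08 (95% interval -0.37 to 0.54).

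Among the amino acid and folate enzymes, Mthfd2, the mitochondrial enzyme of the folate cycle, rose by 0.95 ± 0.13 in WT mice (medians 6.76 and 13 cpm, adjusted P value 1.88e-07) and by 1.05 ± 0.13 in KO mice (medians 7.40 and 14.6 cpm, adjusted P value 4.15e-08). All 16 UV mice exceeded all controls for Mthfd2. Asns, asparagine synthetase, rose by 0.37 ± 0.07 in WT mice (medians 48.2 and 64.3 cpm, adjusted P value 3.28e-05) and by 0.21 ± 0.07 in KO mice (adjusted P value 0.0089), where the call was lost without mouse 52M or 74F (adjusted P values 0.0672 and 0.0633). Shmt2, mitochondrial serine hydroxymethyltransferase, did not pass in WT mice (0.04, 95% interval -0.21 to 0.28). In KO mice Shmt2 rose by 0.32 ± 0.12 (adjusted P value 0.0225), a call lost without any one of mice 44F, 52M, 66F or 72M (adjusted P values 0.0517 to 0.109).

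Phgdh catalyses the first step of serine synthesis. It ranged from 12.7 to 34.2 cpm in WT controls (median 20.3) and from 3.13 to 7.69 cpm after UV (median 5.14), and in KO mice from 13.7 to 33.5 (median 21.5) and from 3.05 to 14.2 cpm (median 7.30). In 15 of 16 UV mice it was below every control. The log2 fold change was -2.12 ± 0.27 in WT mice (adjusted P value 7.94e-08) and -1.54 ± 0.27 in KO mice (adjusted P value 9.55e-06). Phgdh is uncertain, since 8 annotated copies share at least 500 bases with it at 95.3% to 98.7% identity and reads aligned to several places were not counted. Reads assigned to the copies had medians of 4.00 cpm in WT controls and 0.444 cpm in UV-exposed WT mice, and 2.97 and 0.0511 cpm in KO mice.

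Psat1, which catalyses the step after Phgdh, ranged from 111.2 to 160.3 cpm in WT controls (median 144.4) and from 69.5 to 110.3 cpm after UV (median 93.5), without overlap. It fell by 0.58 ± 0.11 on the log2 scale (adjusted P value 3.64e-05). In KO mice it ranged from 95.1 to 141.6 (median 124.7) and from 78.8 to 147.5 cpm (median 100.6), and the log2 fold change of -0.18 ± 0.11 did not pass (adjusted P value 0.159), except without mouse 66F (-0.28, adjusted P value 0.0164). The difference between the genotypes, 0.41 ± 0.16, did not pass (adjusted P value 0.157).

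The arms were then compared as mean log2 cpm per mouse, of the 18 ER folding and ERAD genes and of the 10 ATF4 arm genes. The ER mean ranged from 6.40 to 6.80 in WT controls and from 7.07 to 7.45 after UV, and from 6.51 to 6.96 and from 7.03 to 7.37 in KO mice. No UV mouse overlapped with a control. The ATF4 arm mean ranged from 4.95 to 5.44 in WT controls and from 5.25 to 5.56 after UV, and from 5.09 to 5.38 and from 5.10 to 5.68 in KO mice, so that the groups overlapped. Averaged over the sexes, the ER mean was higher after UV by 0.57 in WT and 0.56 in KO mice, and the ATF4 mean by 0.21 and 0.25, with SDs within groups of 0.14 and 0.15. When the ERAD genes were left out of the ER arm and Ppp1r15a and Ddit3 out of the ATF4 arm, the ER difference was 0.72 and 0.75 and the ATF4 difference -0.00 and 0.04. The ER mean includes Dnajb9 (log2 fold changes 3.37 and 3.40) and the ATF4 mean Phgdh (-2.12 and -1.54), the largest change in each arm. Means without these genes were not computed. The median log2 fold changes of the 18 and the 10 genes were nearly equal in WT mice, at 0.44 and 0.43. In KO mice they were 0.56 and 0.27. The arm means are descriptions and the difference between the arms was not tested.

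**Figure D4:**
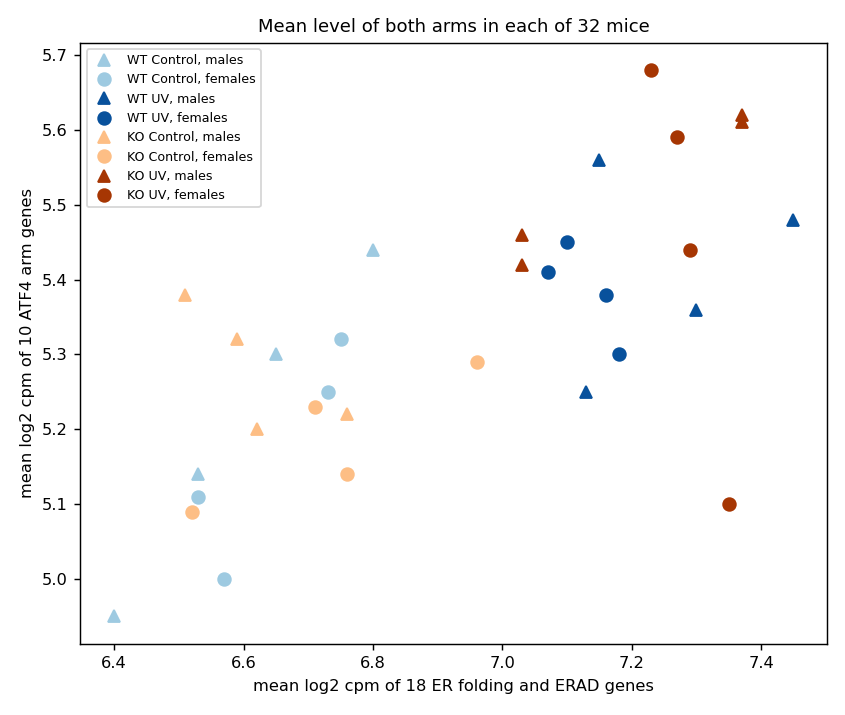
Mean log2 cpm of the 10 ATF4 arm genes against that of the 18 ER folding and ERAD genes in each of the 32 mice (blue, WT; orange, KO; light, control; dark, UV; triangles, males; circles, females). Control mice end at 6.96 on the horizontal axis and UV mice begin at 7.03, whereas the vertical ranges overlap; the UV mouse at 5.10 is 54F, with the fibroblast markers.

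The order of levels, as cpm per kilobase of exons, changed little at the top. In WT controls it was headed by Calr at 166.3, Pdia3 at 129.3, Atf4 at 100.8 and Hspa5 at 82.3 cpm per kilobase, and after UV by Calr at 312.7, Hspa5 at 198.6, Atf4 at 192.4 and Pdia3 at 157.0. Dnajb9 moved from rank 28 to rank 7 of 32 (7.94 and 81.3 cpm per kilobase). Phgdh moved from rank 26 to rank 32, and Psat1 from rank 9 to rank 19.

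When UV mice were compared with controls in WT males, WT females, KO males and KO females separately, 20 of 32 genes had a log2 fold change above 0 in all 4 comparisons and 7 had one below 0, beside 38.6% and 36.6% of all genes tested. Of the 20, 12 passed the test in each of the 4 comparisons, and Atf6, Herpud1 and Phgdh were lower and passed in each. Over all genes tested, 23.1% were called higher and 21.7% lower in each of the 4. The log2 fold change of Dnajb9 lay between 3.23 and 3.54, that of Hspa5 between 1.10 and 1.39 and that of Atf6 between -1.31 and -1.11. Other members varied more, with values from -2.21 to -1.17 for Phgdh, from -0.12 to 0.74 for Sdf2l1 and from -0.04 to 0.62 for Chac1. Psat1 ranged from -0.65 to -0.11, Shmt2 from 0.01 to 0.49 and Ern1 from 0.02 to 0.36. In each of the 4 comparisons the 4 UV mice lay above the 4 controls without overlap for 10 genes (Hspa5, Hyou1, Dnajb9, Dnajb11, Calr, Canx, Creld2, Atf4, Mthfd2 and Ppp1r15a), and below them for Atf6, Herpud1 and Phgdh. Over all genes tested this held for 17.6% (higher) and 17.3% (lower).

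None of the 32 genes differed between KO and WT mice by the edgeR test. The effect of UV differed between the genotypes for 119 of 15546 genes (0.765%) and for no member (3 at an unadjusted P value below 0.05, and no member called by DESeq2 or limma-trend). Without UV, KO and WT mice differed for 32 genes (0.206%) and no member (1 unadjusted, none by DESeq2 or limma-trend). After UV they differed for 514 genes (3.31%) and no member (4 unadjusted, none by DESeq2 or limma-trend). The largest difference after UV was that of Phgdh, at 0.62 ± 0.26, KO minus WT (adjusted P value 0.181), followed by Sdf2l1 at 0.47 ± 0.16 (adjusted P value 0.0905). Manf came next at 0.32 ± 0.11 (adjusted P value 0.11) and was called without mouse 59M (0.37, adjusted P value 0.0397). For Hspa5 the UV effect in KO minus that in WT mice was -0.01, with a 95% interval of -0.34 to 0.31, and for Dnajb9 0.03 (-0.50 to 0.56). For Atf4 the interval was -0.17 to 0.33 and for Phgdh -0.14 to 1.30.

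Averaged over both genotypes, the effect of UV did not differ between females and males for any gene by the edgeR test (0 of 15546, 0%). An unadjusted P value below 0.05 was reached by 1091 genes. DESeq2 called 22 genes and limma-trend 2, none of them members. Xbp1 had the only unadjusted P value below 0.05 among the members. It fell by 0.47 ± 0.10 in WT males and by 0.48 ± 0.10 in KO males, against 0.14 ± 0.10 and 0.28 ± 0.10 in females. The difference, female minus male, was 0.26 ± 0.10 (adjusted P value 0.631).

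Other genes of the same pathways were examined as 5 lists. Over all genes tested, 34.5% were called higher and 36.5% lower in WT mice, and 37.3% and 33.5% in KO mice. Of 35 tested genes for ER import, folding and quality control, 21 rose and 6 fell in WT mice and 22 rose and 5 fell in KO mice (median log2 fold changes 0.36 and 0.32). The largest rises were those of Sec61a1, the channel of the ER translocon, at 1.14 ± 0.06 (161.6 to 195.0 cpm in WT controls, 345.0 to 438.2 cpm after UV), and of Ssr3, a translocon-associated protein, at 0.99 ± 0.06. Sil1, a nucleotide exchange factor of BiP, fell by 3.79 ± 0.25 in WT mice, from 16 to 38.5 cpm in controls to 0.929 to 2.40 cpm after UV, and by 3.31 ± 0.24 in KO mice. The exchange factors Hyou1 and Sil1 thus moved in opposite directions. Ero1lb, an oxidase that recharges disulfide isomerases, fell by 1.57 ± 0.15. All of these values had adjusted P values of 3.56e-10 or lower in WT mice.

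Among 24 ERAD genes and UPR regulators outside the members, 9 rose and 6 fell in each genotype. Ubxn4, an ERAD factor, rose by 1.13 ± 0.06 in WT mice and Creb3l2, an ER-bound transcription factor, by 1.02 ± 0.15. Creb3l1, a related factor, fell by 1.72 ± 0.18 (18 to 27.3 cpm in WT controls, 5.02 to 9.14 cpm after UV). Mbtps1, the protease that makes the first cut in ATF6, fell by 1.00 ± 0.07 (103.7 to 128.4 and 49.9 to 61.8 cpm). Atf6 and the protease that cuts it were thus both lower after UV in each genotype, Mbtps1 by 0.93 ± 0.07 in KO mice.

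Of 10 genes for eIF2 kinases and translation control, 7 rose and 1 fell in WT mice and 5 rose and 2 fell in KO mice. Ppp1r15b, the constitutive counterpart of Ppp1r15a, rose by 1.68 ± 0.10 in WT mice (101.1 to 119.8 and 282.2 to 445.0 cpm) and by 1.53 ± 0.10 in KO mice. Eif2b4, a subunit of the exchange factor eIF2B, rose by 1.31 ± 0.08 and 0.98 ± 0.08. The kinase GCN2, Eif2ak4, fell by 1.31 ± 0.15 and 0.96 ± 0.15. The second fall in KO mice, named after its values were seen, was that of Eif2ak1, the kinase HRI, with a log2 fold change of -0.17 (adjusted P value 0.00708), against -0.07 in WT mice, where it did not pass (adjusted P value 0.25).

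The 29 tested ATF4 and CHOP targets outside the members spread more widely than the members. In WT mice 13 rose and 8 fell (44.8% and 27.6%), and in KO mice 16 rose and 8 fell (55.2% and 27.6%). Tnfrsf10b, a death receptor induced by CHOP and p53, rose by 4.08 ± 0.17 (3.28 to 5.25 cpm in WT controls, 51.9 to 91.6 cpm after UV) and by 4.18 ± 0.17 in KO mice. Gdf15, a stress cytokine, had 1 read in all 8 WT controls together and 126 reads in the 8 UV mice, a ratio of 113.6 with a 95% counting interval of 20 to 4521.7, and in KO mice 4 and 135 reads, a ratio of 34.4 (13.1 to 128.2), where the intervals cover counting error only. Slc1a4, a transporter of serine and alanine, fell by 3.34 ± 0.21 in WT mice, and it fell by 2.30 ± 0.20 in KO mice, and Slc6a9, a glycine transporter, by 2.74 ± 0.11 and 2.64 ± 0.11. Pck2, chosen for mention after its values were seen, was the only gene of the 5 lists for which the UV effect differed between the genotypes: it fell by 1.60 ± 0.20 in WT and by 0.45 ± 0.19 in KO mice, a difference of 1.15 ± 0.27 (adjusted P value 0.0394). Over the alternatives its adjusted P value ran from 0.00892 with DESeq2 to 0.124 without the mice rich in muscle RNA, and its call was lost on leaving out any one of 18 of the 32 mice (adjusted P values up to 0.0871).

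Of 12 aminoacyl-tRNA synthetases, 9 rose and none fell in WT mice, and 7 rose and 2 fell in KO mice. Aars rose by 1.09 ± 0.06 (52.4 to 72.7 and 119.8 to 151.2 cpm in WT mice) and Nars by 1.05 ± 0.06.

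**Figure D5:**
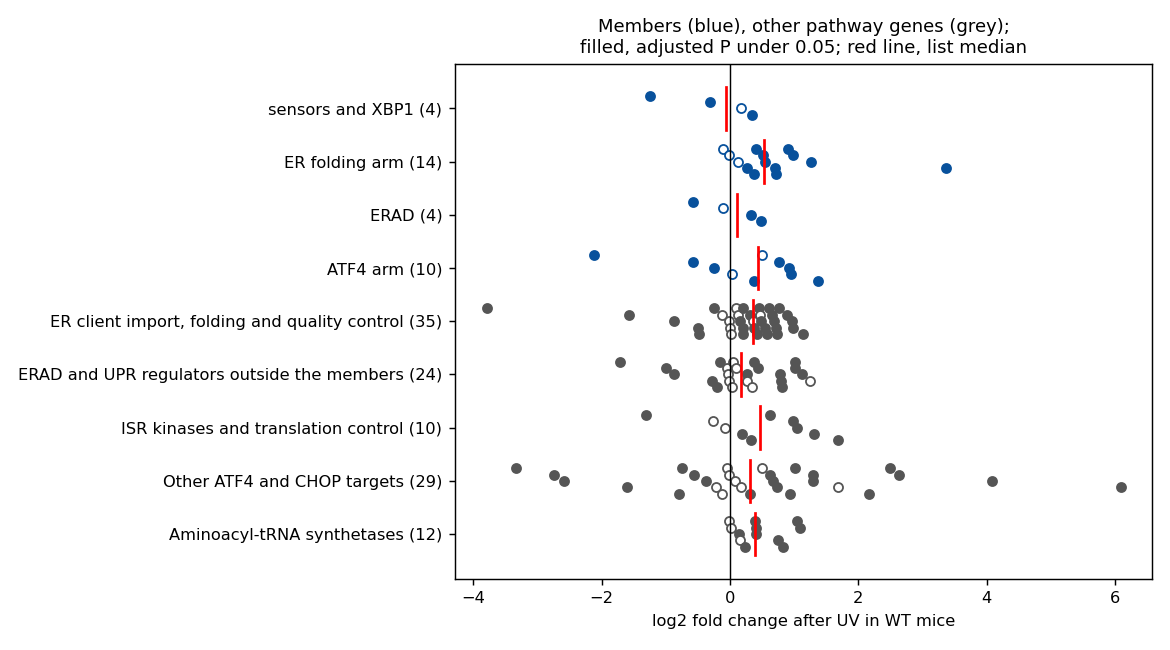
Log2 fold change after UV in WT mice for the 4 member groups (blue) and the 5 other pathway lists (grey), 1 point per gene; filled points have an adjusted P value below 0.05 and red lines are list medians, which run from -0.06 for the sensors to 0.53 for the ER folding arm. The widest spread, from -3.34 to 6.09, is that of the other ATF4 and CHOP targets, where the highest value is Gdf15.

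The epidermis changed in its markers at the same time. The summed level of 6 basal keratinocyte genes ranged from 7092.7 to 16293.1 cpm in WT controls and from 17122.7 to 30192.5 cpm after UV, and that of 6 suprabasal genes from 67313.9 to 79195.7 and from 12127.0 to 26005.9 cpm. In KO mice the basal sum went from 5187.5 to 12019.8 cpm in controls to 15837.9 to 28625.8 cpm after UV, and the suprabasal sum from 62551.3 to 107388.3 to 7633.0 to 30844.6 cpm. The sum of 6 neutrophil and monocyte genes, among which keratinocytes also express S100a8 and S100a9, ranged from 9.64 to 149.0 cpm in controls of both genotypes and from 627.3 to 1621.1 cpm after UV. Langerhans cell marker sums were 670.5 to 1129.2 cpm in WT controls and 380.2 to 513.0 cpm after UV, and 600.1 to 1080.6 and 425.0 to 907.3 cpm in KO mice, where the ranges overlapped. Of the 6 basal genes, 3 rose and 2 fell in WT mice and 4 rose and 1 fell in KO mice, whereas 5 and 6 of the 6 suprabasal genes fell. Of the 6 T cell genes, 5 fell and 1 rose in each genotype. Their median log2 fold changes were -1.51 in WT and -1.04 in KO mice. Langerhans cell genes fell for 5 of 6 in each genotype, and 1 rose in KO mice. Of 6 sebocyte genes, 2 rose and 1 fell in WT mice and 4 rose in KO mice, where the sum reached 2604.6 cpm in mouse 66F. All 6 dermal fibroblast genes were called higher in KO than in WT mice after UV, in a group that holds mouse 54F. Plasma and B cell genes, from cells with abundant ER, summed to at most 30.0 cpm in any mouse. In bulk epidermis, fewer cells of a type and less RNA per cell cannot be told apart, and the part of these marker changes in the levels of the 32 genes was not tested.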

How the data were processed

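Epidermal RNA from 32 mice was sequenced from stranded poly(A) libraries (single reads), with RNA quality given differently by the labels and the methods. The authors trimmed reads with Cutadapt (version 1.8), removed ribosomal and low-complexity reads, aligned the rest with STAR (version 2.5.3a) and counted reads per gene with HTSeq (version 0.9.1). The deposited values are whole-number counts per gene and mouse, neither normalized nor filtered, and reads aligned to several places or to no gene were left out (6.8% to 9.75% of uniquely aligned reads had no gene). The submitters' notes name the build GRCm38, whereas the methods name a human build. GENCODE M21 gave symbols for 55141 of 55401 identifiers.

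The 15546 genes reaching 1 cpm in any mouse were tested with edgeR (version 4.0.16, R 4.3.3). TMM scaling, 8 groups in 1 fit and quasi-likelihood tests were used. The UV and genotype contrasts averaged the sexes, and the sex-by-UV contrast averaged the genotypes. The separate comparisons by sex and genotype averaged neither. Adjusted P values are Benjamini-Hochberg values over all genes tested. Cpm values use TMM-scaled library sizes and arm means use log2 cpm with a prior count of 1. The fit was also run on counts simulated from its own model, with far fewer genes changed than were called here. That run cannot show how the scaling behaves under so broad a response. Each sample is 1 mouse, and counting error is small at this depth except for genes near 0. All 32 members are named, and from each other list the 2 largest rises and falls among the called genes in WT mice. The members and lists were chosen with earlier results of these data known. Promoter windows come from RefSeq (GRCm38.p6), and in 26 of 29 the bases after the start occur in a GENCODE transcript of the gene. Alternatives were RLE scaling, library size only, DESeq2 (version 1.42.0), limma-trend (limma version 3.58.1), other filters, 1 genotype alone, leaving out each mouse and, chosen after seeing the data, leaving out 9 mice over 1000 cpm of skeletal muscle markers. Intervals on summed reads are exact binomial intervals (SciPy).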

Additional observations from a re-analysis of the deposited data

Results flagged for a closer look

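Among 256 sets of 4 mice (32 genes in 8 groups), 10 had a highest or lowest mouse set far apart from the others relative to the range of the group. Chance gives about 1 in 20 such sets, a share that 10 of 256 do not exceed. The same mice enter the sets of all 32 genes, so that the sets are not independent. Sel1l accounted for 3 of them, with the lowest mouse at 127.5 cpm in WT female controls (73F, next 141.3), at 132.6 cpm in KO male controls (34M, next 153.3) and at 134.4 cpm in KO female controls (44F, next 141.9). Shmt2 was lowest at 60.7 cpm in WT females after UV (57F, next 71) and at 47.4 cpm in KO male controls (52M, next 67.2). In the same mouse 52M, Mthfd2 was lowest at 5.83 cpm (next 7.38). Ern1 was lowest at 75.7 cpm in KO male control 34M (next 96.8). Chac1 was highest at 31.1 cpm in WT female control 63F (next 15.6), and without that mouse the WT rise of Chac1 passed the test. After UV in KO males, Hspa5 was lowest at 680.9 cpm in mouse 59M (next 1009.0) and Dnajc3 at 67.9 cpm in mouse 58M (next 93.9).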

How the results depend on the processing

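Over scaling, filter, tool, single genotype, muscle and leave-one-out alternatives, 26 of the 32 genes in WT mice and 24 in KO mice kept direction and call. Xbp1 in WT mice lost its call without the mice rich in muscle RNA. Trib3 in WT mice lost it there and without a filter on low counts, Sel1l in KO mice with library size only (adjusted P value 0.0681) and without those mice (0.0523), Asns in KO mice without a filter (0.0788), and Shmt2 in KO mice without a filter (0.0723) and in KO mice alone (0.0545). Chac1 in WT mice passed with RLE, DESeq2, WT mice alone and without those mice. Signs turned only for genes not called: Pdia4 in WT mice to 0.02 (RLE, DESeq2, no muscle-rich mice), Shmt2 in WT mice to -0.02 (library size), Eif2ak3 in KO mice to -0.00 (other filters), Dnajc3 in KO mice to 0.01 (library size), and Trib3 and Chac1 in KO mice to 0.02 and -0.14 (no muscle-rich mice). The cause was not tested.

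Leaving out 1 mouse moved Pdia4 in WT mice between -0.06 and 0.06, Shmt2 in WT mice between -0.01 and 0.11, Eif2ak3 in KO mice between -0.01 and 0.08, Dnajc3 in KO mice between -0.05 and 0.03 and Chac1 in KO mice between -0.08 and 0.26. Members higher ran from 19 to 21 in WT and 18 to 20 in KO mice. Over all genes, calls of the genotype-by-UV effect were 841 by DESeq2, 55 without a filter, 30 without muscle-rich mice and 56 to 346 without 1 mouse. The genotype difference without UV gave 78 (DESeq2), 18 (no muscle-rich mice) and 20 to 45, and that after UV 1116 (DESeq2), 260 (limma-trend), 263 (no filter), 26 (no muscle-rich mice) and 133 to 983, with 0 to 1 members. The sex-by-UV effect gave 22 (DESeq2), 2 (limma-trend) and 0 to 1. The share of higher calls moved with the scaling, from 67.2% to 56.3% (RLE) and 77.3% (library size) for the genotype-by-UV effect, from 71.9% to 55.2% (library size) without UV, and from 81.3% to 70.3% (RLE) after UV. The fold threshold left 10 and 2 genes in WT mice and 13 and 2 in KO mice, and the narrower arms gave 0.72, 0.75, -0.00 and 0.04. No mouse could be paired with itself, because the groups compared for UV or genotype share at most 1 mouse number. A number that recurs belongs to a male and a female. The sample labels used here name no litter, so that relatedness among littermates was not modelled.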

Other observations

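Within the UV mice, some genes that rose together on average ranked the mice differently. These values were chosen after they were seen. Mouse 58M, a KO male, had the highest level of Dnajb9 (379.7 cpm), Atf4 (655.1 cpm), Ppp1r15a (236.1 cpm) and Chac1 (46.9 cpm) of all 16 UV mice. The same mouse had the lowest level of Hsp90b1 (278.6 cpm), Hyou1 (131.6 cpm), Dnajb11 (100 cpm), Dnajc3 (67.9 cpm), Sdf2l1 (6.29 cpm), Pdia3 (400.7 cpm), Pdia4 (47.6 cpm), Canx (410.8 cpm), Creld2 (34.3 cpm), Asns (45.5 cpm) and Shmt2 (52 cpm). Its Hspa5 (1009.0 cpm) and Calr (915.2 cpm) were not low, beside medians of 849.2 and 906.8 cpm in the 16 UV mice. Mouse 58M was 1 of the 9 mice with over 1000 cpm of skeletal muscle markers. In WT mice, female 57F had the highest Dnajb9 (311.8 cpm), Ppp1r15a (207.9 cpm), Ddit3 (17.7 cpm) and Chac1 (41.3 cpm) of the 8 UV mice, and the lowest Hsp90b1 (289.9 cpm), Hyou1 (157.3 cpm), Pdia4 (54.4 cpm), Creld2 (38.4 cpm), Manf (59.6 cpm) and Psat1 (69.5 cpm). Mouse 57F also had the highest Calr of all 16 UV mice (984.6 cpm). Its Hspa5 (903.9 cpm) lay above the median of the 8 WT mice after UV (820.7 cpm).

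The opposite order was seen in KO female 66F, which had the lowest Dnajb9 (126.7 cpm), Ppp1r15a (106.7 cpm), Ddit3 (11.3 cpm) and Chac1 (11.4 cpm) of the 8 KO mice after UV and the highest Pdia6 (226.1 cpm), Phgdh (14.2 cpm), Psat1 (147.5 cpm), Shmt2 (141.6 cpm) and Trib3 (38.9 cpm). Its summed sebocyte markers were 2604.6 cpm, the highest of all mice. WT male 71M had, among other genes, the highest Hspa5 (1030.5 cpm), Hsp90b1 (492.5 cpm), Hyou1 (232.5 cpm), Pdia3 (530.8 cpm), Creld2 (65.3 cpm) and Manf (104.2 cpm) of the WT mice after UV. Its Atf4 was the lowest of these mice (409.9 cpm), but barely below that of 32M (410.6 cpm).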
